A study of Homo sapiens with 12 samples.

Results

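The genes described here are the writers and erasers of N6-methyladenosine (m6A), a methyl mark on adenosines of messenger RNA: METTL3, METTL14, WTAP, VIRMA, ZC3H13, RBM15, RBM15B, CBLL1, FTO and ALKBH5. They were found by gene symbol, and all 10 were among the 19951 rows of the deposited table, each on 1 row. The measurements were made in MonoMac6 (MM6), an established line of monocytic type from human acute myeloid leukemia (AML), so every group shares the background of 1 cell line. Cells carried shNS, the control hairpin, or either of 2 hairpins against IGF2BP2, named shBP2-1 and shBP2-2, and all groups alike received lentivirus for 48 h and puromycin for 2 days. Each hairpin had 2 mRNA libraries and 2 libraries of ribosome footprints, the RNA pieces covered by ribosomes, from cells held 15 min in cycloheximide. That makes 12 libraries. Nothing in the labels says that replicates were separate cultures, so the spread between libraries behind the p-values below may be technical. The tests combine each gene's own spread with a spread fitted over all genes tested.

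The m6A mark is set in the nucleus by a complex around METTL3, which binds the methyl donor and catalyses the transfer, and METTL14, its partner that holds the RNA. WTAP, VIRMA, ZC3H13, CBLL1, RBM15 and RBM15B dock onto this pair and steer it to transcripts, FTO and ALKBH5 remove the methyl group, and readers such as IGF2BP2 bind the marked RNA. In AML, METTL3, METTL14, FTO and ALKBH5 have each been described as supporting leukemic growth.

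Values were normalized read counts as deposited, all of them whole numbers. For tests they were rescaled within each assay by median-ratio factors, which set the middle of all genes equal between libraries, so each change below is relative to that middle. The factors ran from 0.979 to 1.02 for mRNA. For footprints they were 0.299 and 0.269 under shBP2-1, 1.01 and 1.54 under shBP2-2, and 2.99 and 2.69 under shNS. Footprint scale thus differed by hairpin without overlap, and its part in the footprint and efficiency results was not tested. Summed values ran from 22685066 to 24854593 for mRNA and from 456338 to 4884067 for footprints. IGF2BP2 mRNA was at 2471 and 2357 under shNS, 477 and 507 under shBP2-1, and 698 and 772 under shBP2-2, a fall in the mean of both hairpins (log2 change -1.99 ± 0.09, adjusted p = 5.87e-08). All 12 monocyte and myeloid markers were tested in mRNA, and they moved both ways. In the mean of both hairpins 4 rose and 2 fell (all genes 29.1% and 29.3%). With shBP2-1 5 rose and 2 fell (23.7% and 20.8%), and with shBP2-2 2 rose and 4 fell (28.1% and 28.6%). The summed rescaled mRNA value of these 12 markers was 131076 to 133456 under shNS, 200254 to 203105 under shBP2-1 and 106302 to 107250 under shBP2-2, and its part in the results below was not tested. The 7 T and NK cell markers summed to 2235 to 2243 under shNS, 1495 to 1858 under shBP2-1 and 1782 to 2064 under shBP2-2, nearly all of it NKG7. Of these markers 2 were tested, NKG7 (-0.32) and CD8A (-0.72), and both fell in the mean of both hairpins. Both also fell with shBP2-1, but with shBP2-2 0 of the 2 were called (median 0.09). CD8A was called lower with shBP2-1 than with shBP2-2. CD3D and CD3E were at 0 in every library, and the part of these markers in the results was not tested. Errors after ± are standard errors (SE) of log2 fold changes over n = 2 libraries per group, calls have a limma p under 0.05 after Benjamini-Hochberg adjustment over all genes tested, and 95% intervals are unadjusted. The comparisons of each hairpin and of their mean use the same shNS libraries. In bulk samples fewer cells of a kind and less RNA per cell cannot be told apart.

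In mRNA, METTL14, VIRMA, ZC3H13 and WTAP rose in the mean of both hairpins, ALKBH5 fell, and METTL3, CBLL1, RBM15, RBM15B and FTO did not pass the test. That is 4 of 10 genes higher and 1 lower. Over all 12196 genes tested 58.4% were called, 29.1% higher and 29.3% lower, so the number of calls among the 10 is near that of any genes, and their median change was 0.16 beside -0.01 for all genes. In every knockdown library the same 4 genes lay above both shNS libraries, as did 30.5% of all genes, and METTL3, RBM15 and ALKBH5 lay below them, as did 30.1%. With shBP2-1 alone 4 rose and 0 fell, where 44.5% of all genes were called (23.7% higher, 20.8% lower), and with shBP2-2 alone 5 rose and 2 fell, where 56.7% were (28.1% higher, 28.6% lower).

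**Figure D1:**
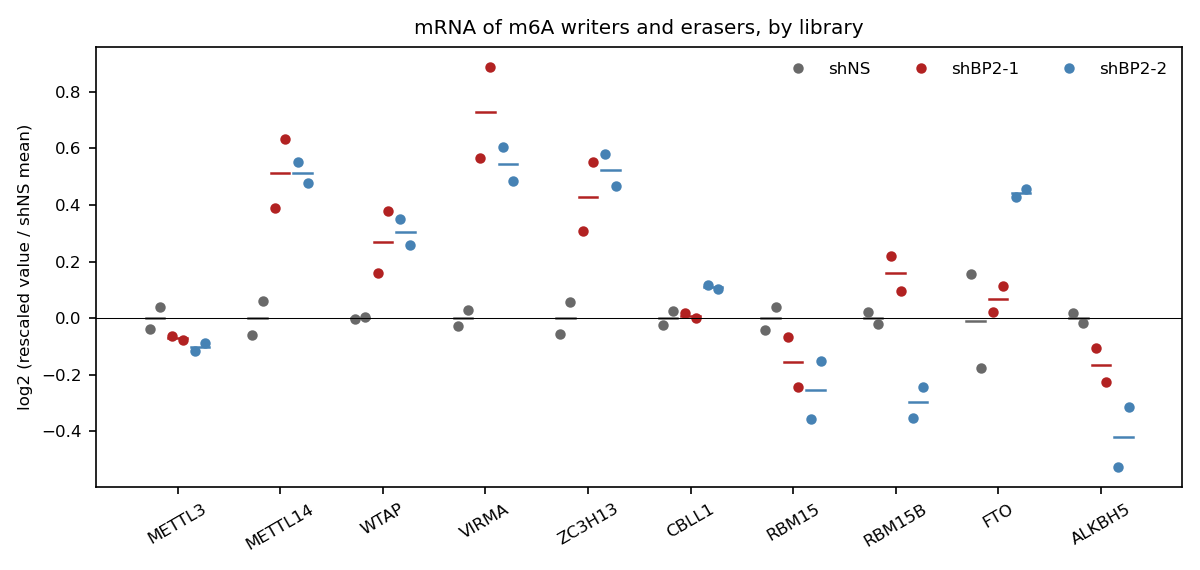
mRNA of each gene in each library, as log2 of the rescaled value over the shNS mean; points are libraries (2 per hairpin) and bars are hairpin means. All shBP2-1 and shBP2-2 points of METTL14, WTAP, VIRMA and ZC3H13 lie above the shNS points, those of METTL3 lie slightly below, and with shBP2-2 FTO is raised (0.45) and RBM15B lowered (-0.30).

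METTL3 and METTL14, the catalytic pair, went apart at the mRNA level. METTL3 (chromosome 14, 21498138 to 21511340, minus strand, GRCh38.p14) was at 1716 and 1810 under shNS, 1703 and 1666 under shBP2-1, and 1580 and 1626 under shBP2-2. The knockdown values were all below the shNS values by a small margin, and the log2 change of -0.09 ± 0.08 was not called (adjusted p = 0.380, interval -0.27 to 0.09). METTL14 (chromosome 4, 118685392 to 118715430, plus strand) was at 1183 and 1284 under shNS, 1633 and 1910 under shBP2-1, and 1758 and 1683 under shBP2-2. Every knockdown library was above both shNS libraries, a rise of 1.43-fold (log2 0.51 ± 0.09, adjusted p = 0.000884) that was larger than the changes of 87.9% of genes. It was alike with shBP2-1 (0.51 ± 0.11) and shBP2-2 (0.52 ± 0.11), and the interval of their difference was -0.24 to 0.23. The shBP2-1 call was lost without shNS replicate 1 (0.46, adjusted p = 0.0577).

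The ratio of the METTL3 to the METTL14 value within a library does not depend on how libraries are rescaled. In mRNA it was 1.45 and 1.41 under shNS, 1.04 and 0.872 under shBP2-1, and 0.899 and 0.966 under shBP2-2. The knockdown libraries did not overlap with shNS, and the mean log2 ratio was lower by 0.60 in the 4 knockdown libraries (difference -0.60), for which an exact two-sided permutation test gives p = 0.133, the smallest this design of 4 against 2 libraries allows. In footprints the same ratio was 1.07 and 0.950 under shNS, 1.47 and 1.24 under shBP2-1, and 0.941 and 0.731 under shBP2-2. The footprint ratios were thus above shNS with shBP2-1 and below it with shBP2-2, without a common direction (exact two-sided permutation p = 0.933).

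**Figure D2:**
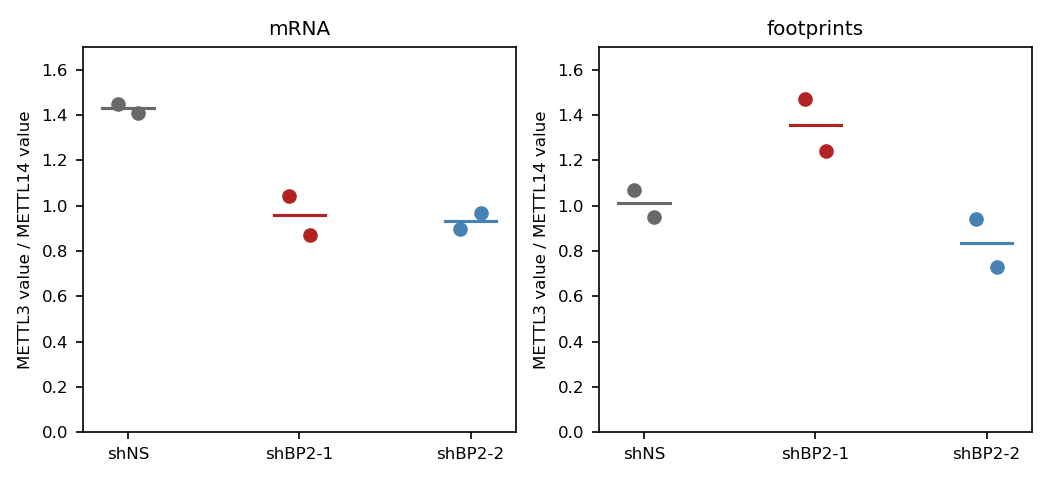
METTL3 value divided by METTL14 value within each library, for mRNA (left) and footprints (right); points are libraries (2 per hairpin), bars are means, and the y axis starts at 0. The mRNA ratio is 1.41 and 1.45 under shNS and at most 1.04 in the knockdown libraries, while the footprint ratio is highest in shBP2-1 and lowest in shBP2-2.

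The start regions of the catalytic pair and of ZC3H13, which rose beside METTL14, are shown because these transcripts moved differently or together. Each is the 250 bases before the RefSeq start in GRCh38.p14, written 5′ to 3′ on the gene's strand, with matches to searched motifs in capitals: METTL3 at chr14:21511341-21511590 (minus strand), METTL14 at chr4:118685142-118685391 (plus strand) and ZC3H13 at chr13:46052747-46052996 (minus strand).
METTL3: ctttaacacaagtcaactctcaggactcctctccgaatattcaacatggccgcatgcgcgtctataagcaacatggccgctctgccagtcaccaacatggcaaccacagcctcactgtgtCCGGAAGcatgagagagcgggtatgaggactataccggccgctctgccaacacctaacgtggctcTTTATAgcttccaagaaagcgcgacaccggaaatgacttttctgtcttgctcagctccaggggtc
METTL14: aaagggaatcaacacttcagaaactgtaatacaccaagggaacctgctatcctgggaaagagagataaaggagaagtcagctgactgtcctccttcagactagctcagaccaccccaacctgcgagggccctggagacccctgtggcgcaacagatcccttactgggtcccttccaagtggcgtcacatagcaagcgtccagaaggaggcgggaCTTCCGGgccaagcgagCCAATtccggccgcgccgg
ZC3H13: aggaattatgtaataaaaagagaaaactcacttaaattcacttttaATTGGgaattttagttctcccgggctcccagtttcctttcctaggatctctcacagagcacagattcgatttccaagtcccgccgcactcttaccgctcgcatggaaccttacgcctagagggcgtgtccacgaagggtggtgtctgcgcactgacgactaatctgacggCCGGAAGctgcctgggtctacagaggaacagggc
The 7 motifs, each searched on both strands, were CCGGAAG (an ETS family core), GGGCGG (the GC box), CCAAT (the NF-Y core), CACGTG (an E-box), TGATGCAA (the C/EBP-ATF element), AAGATGGCG (the YY1 motif) and TATAAA (the TATA box), none of which contains another. RefSeq windows matched 9 of the 10 genes, all but VIRMA. These 9 genes had 10 windows, as WTAP had more than a single start, while the shares given for all windows are per window. CCGGAAG was in the windows of 4 of these 9 genes (METTL3, METTL14, ZC3H13 and CBLL1) and in 8.52% of all 35116 windows, and CCAAT in 5 of 9 (METTL14, ZC3H13, WTAP, CBLL1 and RBM15) and in 32.0%. TATAAA was only in that of METTL3 and in 10.7%. The METTL3 match lies on the opposite strand (TTTATA as written), so it is a match to the letters and not a placed TATA box. GGGCGG was in 5 of 9 (42.6% of all windows), CACGTG in those of RBM15 and RBM15B (6.34%), and TGATGCAA (0.772% of windows) and, likewise, AAGATGGCG (0.652% of windows) in 0 of 9. METTL3, which was not called, and METTL14 and ZC3H13, which rose, thus share the CCGGAAG match.

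Among the proteins that hold the complex together, VIRMA had the largest rise. VIRMA, the large scaffold that is known to guide methylation toward the ends of transcripts (chromosome 8, 94487689 to 94553469), was at 2311 and 2396 under shNS, 3525 and 4349 under shBP2-1, and 3485 and 3224 under shBP2-2. All knockdown libraries were far above shNS, a rise of 1.55-fold in the mean of both hairpins (log2 0.64 ± 0.10, adjusted p = 0.000359), past 94.1% of all genes. The changes were 0.73 ± 0.11 with shBP2-1 and 0.55 ± 0.11 with shBP2-2, and the difference of 0.18 was not called (adjusted p = 0.264, interval -0.06 to 0.43), though without shBP2-1 replicate 1 it was 0.34 and called (adjusted p = 0.0125).

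ZC3H13, a zinc finger scaffold known from mouse cells to hold the complex in the nucleus (chromosome 13, 45954465 to 46052746), was at 1864 and 2013 under shNS, 2425 and 2835 under shBP2-1, and 2821 and 2628 under shBP2-2. Here too every knockdown library exceeded both shNS libraries, by 1.39-fold in the mean (log2 0.48 ± 0.09, adjusted p = 0.00119). With shBP2-1 alone the rise was 0.43 ± 0.11 and its call was lost without shNS replicate 1 (0.38, adjusted p = 0.0976). With shBP2-2 alone it was 0.53 ± 0.11.

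WTAP, the adaptor that brings the catalytic pair to nuclear speckles (chromosome 6, 159726693 to 159756319), was at 2531 and 2539 under shNS, 2861 and 3293 under shBP2-1, and 3145 and 2969 under shBP2-2. The groups did not overlap, but the rise was smaller (1.22-fold, log2 0.29 ± 0.09, adjusted p = 0.0139) and its call was lost without shNS replicate 1 (adjusted p = 0.122) or shNS replicate 2 (0.103). With shBP2-1 alone the value of 0.27 went to 0.16 without shBP2-1 replicate 2, where its call was lost. With shBP2-2 alone the value of 0.30 went to 0.26 without shBP2-2 replicate 1, where its call was lost. Both hairpins alone also lost their call without either shNS library. The call was kept in 5 of 11 alternatives with shBP2-1 and in 7 of 11 with shBP2-2.

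CBLL1, also called HAKAI, an E3 ubiquitin ligase that is part of the complex (chromosome 7, 107744142 to 107761667), stayed between 1692 and 1815 in all 6 mRNA libraries. Its log2 change of 0.06 ± 0.08 was not called (adjusted p = 0.543, interval -0.12 to 0.24).

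RBM15 and RBM15B, paralogs that bind uridine-rich RNA and recruit the complex, differed in how they followed the hairpins. RBM15 (chromosome 1, 110339377 to 110346677) was at 757 and 800 under shNS, 750 and 657 under shBP2-1, and 591 and 686 under shBP2-2. All knockdown values were below shNS, yet the change of -0.20 ± 0.10 was not called (adjusted p = 0.0983), or -0.25 and called without shBP2-1 replicate 1 (0.0234). RBM15B (chromosome 3, 51391285 to 51397908) was at 2029 and 1967 under shNS, 2353 and 2133 under shBP2-1, and 1522 and 1655 under shBP2-2. It was thus above shNS with shBP2-1 (0.16 ± 0.10, adjusted p = 0.201) and fell with shBP2-2 (-0.30 ± 0.10, adjusted p = 0.0212), and the hairpins differed by 0.46 ± 0.10 (adjusted p = 0.00508). That difference had an adjusted p of 0.0502 without shBP2-2 replicate 1, and the shBP2-2 call was lost without shBP2-2 replicate 1 (adjusted p = 0.202), shNS replicate 1 (0.172) or shNS replicate 2 (0.108). Between the hairpins 23.3% of all genes were called, 11.8% higher and 11.6% lower with shBP2-1, and of the 10 genes RBM15B (higher) and FTO (lower).

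The erasers had opposite signs. ALKBH5, a nuclear m6A demethylase (chromosome 17, 18183828 to 18209954), was at 1297 and 1262 under shNS, 1201 and 1093 under shBP2-1, and 864 and 1009 under shBP2-2. It was lower in all knockdown libraries and lowest with shBP2-2, with a fall of 0.29 ± 0.09 in the mean of both hairpins (log2 change -0.29, adjusted p = 0.0178). The call in the mean was lost without shBP2-2 replicate 1 (adjusted p = 0.0861), shNS replicate 1 (0.166) or shNS replicate 2 (0.107). With shBP2-2 alone ALKBH5 fell by 0.42 ± 0.11 (change -0.42, adjusted p = 0.00592), a call lost without shBP2-2 replicate 1 (0.103) or shNS replicate 1 (0.0689), and with shBP2-1 the value was -0.17 ± 0.11 (0.227). The hairpins differed by 0.25 ± 0.11 (adjusted p = 0.110), called without shBP2-1 replicate 2 (0.0404).

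FTO, an m6A demethylase that also acts on the methylated adenosine next to the cap (chromosome 16, 53703963 to 54121941), was at 539 and 427 under shNS, 495 and 522 under shBP2-1, and 632 and 650 under shBP2-2. Its shNS replicates spanned those of shBP2-1, and only shBP2-2 stood above them. FTO rose with shBP2-2 (0.45 ± 0.13, adjusted p = 0.00930), not with shBP2-1 (0.08 ± 0.13, adjusted p = 0.638), and the hairpins differed by -0.37 ± 0.13 (adjusted p = 0.0495). Without shNS replicate 2 the shBP2-2 value went to 0.29 (adjusted p = 0.170). The difference was no longer called when shBP2-1 replicate 1 was left out (adjusted p = 0.0892), nor without shBP2-2 replicate 1 (0.107) or shBP2-2 replicate 2 (0.115), and it was called in 4 of 11 alternatives. In the mean of both hairpins FTO was at 0.26 ± 0.11 (adjusted p = 0.0546), at 0.44 without shNS replicate 1 (adjusted p = 0.0441) and at 0.10 without shNS replicate 2 (adjusted p = 0.607). Without shBP2-1 replicate 1 it was 0.28 and called (adjusted p = 0.0222). The ratio of the FTO to the ALKBH5 mRNA value was 0.416 and 0.338 under shNS, 0.412 and 0.478 under shBP2-1, and 0.731 and 0.644 under shBP2-2. Only the shBP2-2 libraries were clear of the others in this ratio.

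In footprints none of the mRNA rises was called: 0 of the 10 genes were called in the mean of both hairpins or with either hairpin alone against shNS (limma with precision weights), where 10.2%, 7.32% and 13.3% of 8662 genes were called. At an unadjusted p under 0.05 the mean of both hairpins had 2 of the 10 genes, FTO and CBLL1, and 2324 of all genes. Limma without weights called 0 of the 10 in the mean and with shBP2-2, and METTL3 with shBP2-1. The median change of the 10 genes was 0.12 beside 0.00 for all genes. In every knockdown library RBM15 footprints lay above both shNS libraries, as did 11.4% of all genes, and CBLL1 footprints lay below them, as did 12%.

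**Figure D3:**
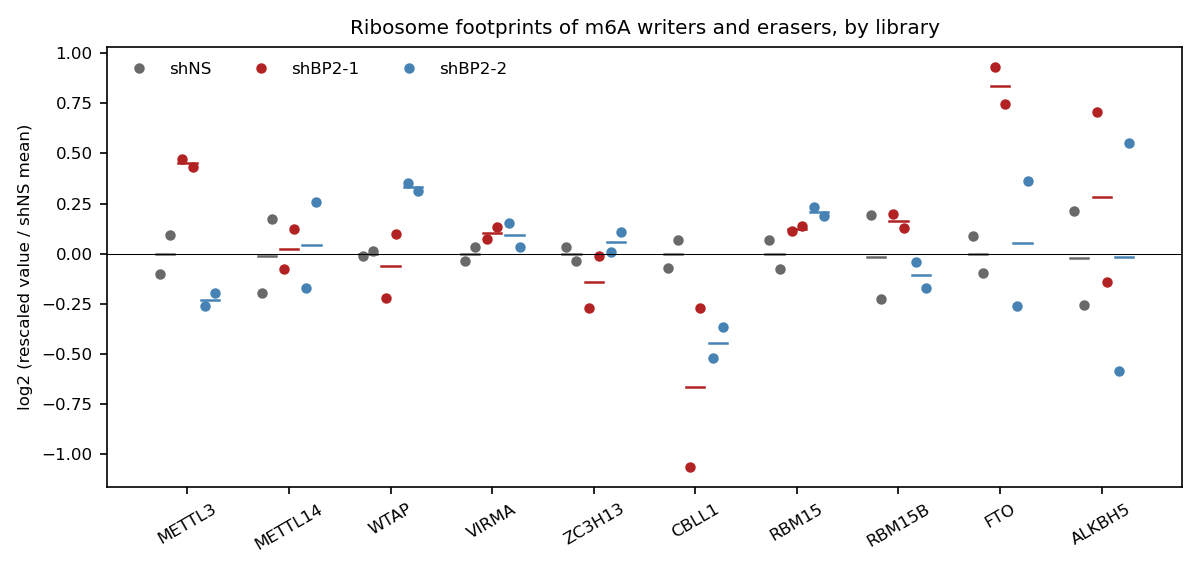
Ribosome footprints of each gene in each library, as log2 of the rescaled value over the shNS mean; points are libraries (2 per hairpin) and bars are hairpin means. The points of METTL14, VIRMA and ZC3H13 lie around 0 in all groups, and those of ALKBH5, CBLL1 and FTO are widely spread. All knockdown points of CBLL1 lie below the shNS points, and the shBP2-1 points of FTO lie above them. METTL3 lies above 0 with shBP2-1 and below it with shBP2-2.

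The footprint values of METTL14 were 295 and 342 under shNS, 32 and 33 under shBP2-1, and 101 and 208 under shBP2-2 as deposited, which became 98.6 and 127, 107 and 123, and 100.5 and 135 after rescaling. The rescaled groups overlapped, with shBP2-2 replicate 2 the highest of all, and the change was 0.08 ± 0.17 (adjusted p = 0.798, interval -0.28 to 0.44). VIRMA, with the most footprints of the 10, was at 1029 and 970 under shNS, 111 and 104 under shBP2-1, and 394 and 555 under shBP2-2, or at 344 and 361, 371 and 387, and 392 and 360.5 after rescaling. These were nearly level, at 0.10 ± 0.08 (adjusted p = 0.441), and the interval of -0.07 to 0.27 lay below the mRNA change of 0.64. ZC3H13 was at 506 and 434 under shNS, 41 and 44 under shBP2-1, and 167 and 274 under shBP2-2, and its relative change was -0.03 ± 0.11 (adjusted p = 0.877, interval -0.26 to 0.20). WTAP had 289 and 264 footprints in shNS, 25 and 28 under shBP2-1, and 125 and 186 under shBP2-2. After rescaling it was at 0.14 ± 0.13 (adjusted p = 0.506), higher with shBP2-2 (0.33 ± 0.11, adjusted p = 0.0714) than with shBP2-1 (-0.04 ± 0.20), though the hairpins did not differ past the threshold (adjusted p = 0.303).

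METTL3 was the 1 gene of the 10 whose footprints were called between the hairpins. They were 316 and 325 under shNS, 47 and 41 under shBP2-1, and 95 and 152 under shBP2-2, which gave rescaled values of 106 and 121, 157 and 153, and 94.5 and 98.7. Both shBP2-1 libraries were above shNS and both shBP2-2 libraries below it. Neither hairpin was called against shNS (0.47 ± 0.17, adjusted p = 0.120; -0.21 ± 0.12, adjusted p = 0.290), and the difference between the hairpins was (0.69 ± 0.19, adjusted p = 0.0484), where 6.75% of all genes were called. Without shNS replicate 2 the shBP2-1 value was 0.57 and called (adjusted p = 0.0429). The difference between the hairpins lost its call without any 1 of the 4 libraries it compares, with adjusted p-values of 0.327 and 0.267 without shBP2-1 replicate 1 and 2 and of 0.0987 and 0.103 without shBP2-2 replicate 1 and 2.

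The footprints of the other genes were not called either. ALKBH5 was at 57 and 37 under shNS, 8 and 4 under shBP2-1, and 11 and 37 under shBP2-2, so its interval ran from -0.47 to 1.02. RBM15B was at 70 and 47 under shNS, 7 and 6 under shBP2-1, and 20 and 28 under shBP2-2, with an interval of -0.48 to 0.65. For ALKBH5 and RBM15B these intervals include both 0 and the mRNA changes of the mean of both hairpins (-0.29 and -0.07). The same holds for WTAP (interval -0.13 to 0.42, mRNA change 0.29) and METTL3 (interval -0.12 to 0.39, mRNA change -0.09). FTO was at 106 and 84 under shNS, 19 and 15 under shBP2-1, and 28 and 66 under shBP2-2, with 0.50 ± 0.20 (adjusted p = 0.141). CBLL1 was at 179 and 177 under shNS, 9 and 14 under shBP2-1, and 44 and 75 under shBP2-2, with -0.52 ± 0.19 (adjusted p = 0.109). RBM15 was at 330 and 268 under shNS, 34 and 31 under shBP2-1, and 124 and 184 under shBP2-2, with 0.18 ± 0.12 (adjusted p = 0.382).

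**Figure D4:**
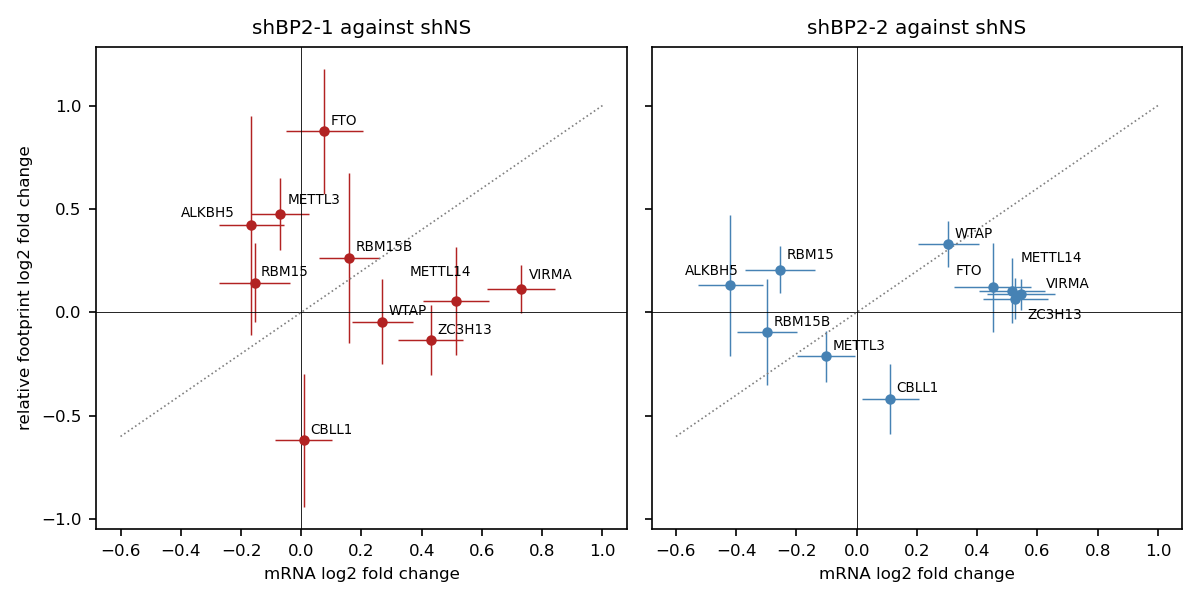
mRNA change (x axis) against relative footprint change (y axis), both as log2 fold change against shNS, for shBP2-1 (left) and shBP2-2 (right); points are genes, bars are standard errors, and the dotted line marks equal change. METTL14, VIRMA and ZC3H13 lie to the right near a footprint change of 0 in both panels, and CBLL1 lies lowest in both.

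Translational efficiency, the change in footprints beyond that in mRNA (an interaction term in a fit of all 12 libraries), was lower for CBLL1, VIRMA and ZC3H13 in the mean of both hairpins and higher for none of the 10 (18.8% of all genes were called higher). Over 8580 genes tested 39.1% were called and 20.3% were called lower, and the count of 3 of 10 is to be read against that share. With shBP2-1 alone 1 of 10 was called (lower; 9.5% of all genes were lower and 19.1% called in all) and with shBP2-2 alone 4 of 10, 1 higher and 3 lower (19.5% and 19.9% of all genes, 39.3% in all). VIRMA had 15.0 and 15.1 footprints per 100 of mRNA value under shNS, 10.7 and 8.95 under shBP2-1, and 11.01 and 11.03 under shBP2-2. These values are on the rescaled scale and not divided by length. Such values divide a footprint library by the mRNA library of the same replicate number, a pairing that the labels do not give. Overlap between groups is therefore not read from them. In the mean of both hairpins VIRMA fell 1.45-fold (log2 -0.54 ± 0.13, adjusted p = 0.00310). VIRMA was called with shBP2-1 (-0.62 ± 0.17, adjusted p = 0.0162) and with shBP2-2 (-0.46 ± 0.14, adjusted p = 0.0138), and its call in the mean was kept without any 1 library. The shBP2-1 call was lost without either shBP2-1 footprint library (adjusted p = 0.0805 and 0.0603), shBP2-1 mRNA replicate 2 (0.0599) or shNS mRNA replicate 1 (0.0598). The shBP2-2 call was lost without shBP2-2 footprint replicate 2 (0.0658), shBP2-2 mRNA replicate 1 (0.0792) or shNS mRNA replicate 1 (0.0691), and in limma without weights (0.0513).

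ZC3H13 went from 9.14 and 8.07 footprints per 100 of mRNA value under shNS to 5.75 and 5.81 under shBP2-1 and 5.76 and 6.68 under shBP2-2. The log2 change was -0.51 ± 0.15 (adjusted p = 0.00992), and without shNS mRNA replicate 1 it was -0.46 and lost its call. With shBP2-1 alone ZC3H13 was not called (-0.56 ± 0.21, adjusted p = 0.0621). With shBP2-2 alone it was called (-0.46 ± 0.15, adjusted p = 0.0206), but not in limma without weights (0.0638). That shBP2-2 call was kept in 8 of 12 alternatives. CBLL1 went from 3.56 and 3.79 under shNS to 1.74 and 3.05 under shBP2-1 and 2.36 and 2.65 under shBP2-2. Its change of -0.58 ± 0.21 (adjusted p = 0.0306) stood beside an mRNA change of 0.06 and a footprint change of -0.52. The call was lost without shBP2-1 footprint replicate 1 (-0.38, adjusted p = 0.199), shNS footprint replicate 2 (0.0632), shNS mRNA replicate 1 (0.0822) or shNS mRNA replicate 2 (0.0546), and in limma without weights (0.0741).

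METTL14 was at 8.39 and 9.96 under shNS, 6.67 and 6.46 under shBP2-1, and 5.59 and 7.92 under shBP2-2. Its change of -0.43 ± 0.19 was not called (adjusted p = 0.0767). It was called without shNS footprint replicate 1 (-0.62, adjusted p = 0.0102), shBP2-2 footprint replicate 2 (0.0272) or shBP2-1 mRNA replicate 1 (0.0292), and went to -0.26 without shNS footprint replicate 2 (0.280). RBM15 was called higher with shBP2-2 (0.46 ± 0.17, adjusted p = 0.0332) and not in the mean (0.38 ± 0.16, adjusted p = 0.0660), where leaving out shNS footprint replicate 1 (0.0360), shBP2-1 mRNA replicate 1 (0.0320) or shBP2-2 mRNA replicate 2 (0.0464) gave a call. The shBP2-2 call of RBM15 was lost without any 1 of 6 of the 8 libraries compared (adjusted p from 0.0663 to 0.168) and kept without shNS footprint replicate 1 or shBP2-2 mRNA replicate 2. METTL3 (0.22 ± 0.14, adjusted p = 0.231), WTAP (-0.14 ± 0.16), FTO (0.23 ± 0.24), RBM15B (0.15 ± 0.28) and ALKBH5 (0.57 ± 0.34) were not called. None of the 10 differed between the hairpins (52 of all genes, 0.606%, did). The widest differences were those of FTO (1.13 ± 0.36, adjusted p = 0.194) and METTL3 (0.66 ± 0.21, adjusted p = 0.201), at unadjusted p-values of 0.00442 and 0.00507.

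**Figure D5:**
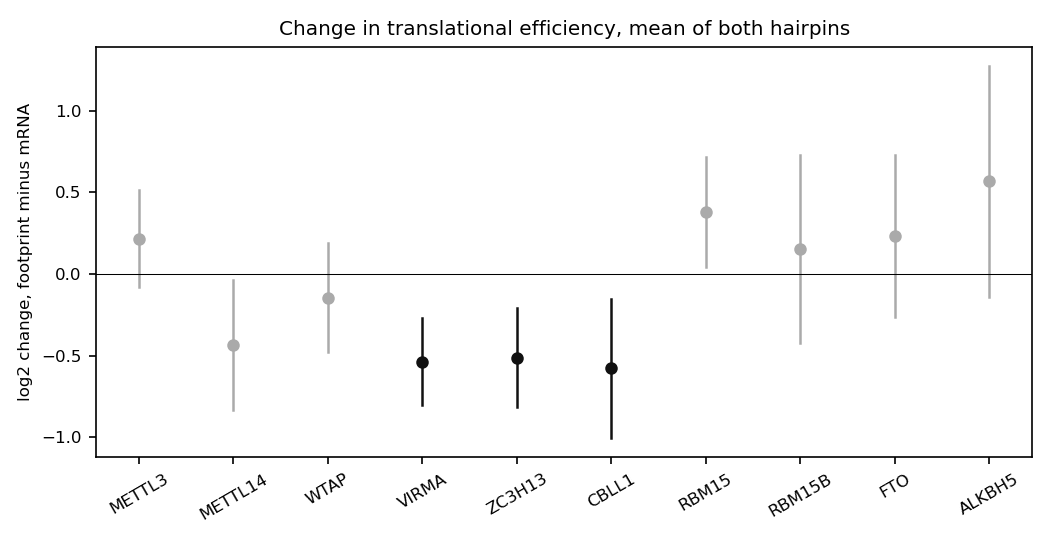
Change in translational efficiency per gene in the mean of both hairpins, as log2 footprint change minus log2 mRNA change; points are estimates, bars are unadjusted 95% intervals, black marks an adjusted p under 0.05 and grey the rest. VIRMA, ZC3H13 and CBLL1 lie between -0.51 and -0.58, and the interval of ALKBH5 is the widest.

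Other genes of the pathway were counted by list in the mean of both hairpins, where 29.1% of all genes rose and 29.3% fell in mRNA, 10.2% were called in footprints, and 18.8% rose and 20.3% fell in translational efficiency. Of 6 other RNA methylases 2 rose and 2 fell in mRNA. METTL5, the methylase of the small-subunit ribosomal RNA, rose (0.69 ± 0.10, adjusted p = 0.000233), as did METTL4 (0.39), while PCIF1, which methylates the cap-adjacent adenosine, fell (-0.42). In footprints 0 of these 6 were called by weighted limma, with METTL5 at 0.04 ± 0.12, and METTL5 fell in translational efficiency (-0.65 ± 0.16, adjusted p = 0.00321). Of 5 genes that supply and clear the methyl donor, MAT2A, which makes S-adenosylmethionine, rose in mRNA (0.30 ± 0.10, adjusted p = 0.0223) and AHCY, which clears the product that inhibits methylases, fell (-0.32 ± 0.08, adjusted p = 0.00435). In footprints 0 of these 5 were called, and in translational efficiency AHCY was called higher. Of 14 tested m6A readers 8 rose and 4 fell in mRNA (median 0.26), among them FMR1 (0.50) and FXR1 (0.54), and the silenced IGF2BP2 is 1 of the 4. In footprints 3 of 13 readers were called, all lower, and in translational efficiency 0 rose and 5 fell (median -0.35 beside -0.03 for all genes). The silenced IGF2BP2 is 1 of these 3 and 1 of these 5. Of 12 tested transcripts described as targets of the writers or erasers in AML, 2 rose and 7 fell in mRNA. In footprints 2 of the 12 were called higher, both among those 7, and 2 lower. In translational efficiency 3 rose and 2 fell. Of 7 other dioxygenases of the ALKBH family 0 rose and 3 fell in mRNA, ALKBH7 (-0.45), ALKBH4 (-0.47) and ALKBH2 (-0.42). Of the 6 tested in footprints 0 were called, and in translational efficiency ALKBH7 was called higher.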

How the data were processed

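The deposited table held scores per gene and library: the authors called them normalized read counts, and all were whole numbers. The sources used here do not state how they were normalized. Per the submitters' processing notes, FastQC, cutadapt, Bowtie, STAR and RSEM were used with build hg38. Per the labels, mRNA libraries came from a stranded kit and footprint libraries from a small-RNA kit after ribosomal RNA depletion. The sources used here do not state whether counting used strand, and the spans of METTL3 (TOX4), WTAP (SOD2) and RBM15B (DCAF1) overlap another gene of the table, so reads of these pairs are uncertain.

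Groups were taken from sample titles. Each assay was rescaled on its own by median-ratio factors. Genes with a mean rescaled value of at least 10 were tested with limma 3.58.1 in R 4.3.3. The mRNA test used log2(value + 1) with a mean-variance trend, so fold changes of low genes are understated, and footprints used voom precision weights. Translational efficiency joined weights made within each assay. Residual degrees of freedom were 3, 3 and 6. Each gene's spread was then moderated by limma toward that fitted over all genes tested. SEs, intervals and p-values use this moderated spread. How the scores relate to read depth is not stated in the sources used here, so no counting interval is given. Deposited footprint values of each of the 10 genes were lowest under shBP2-1, such as 8 and 4 for ALKBH5. The procedure was also run on simulated data in which few genes changed and all genes had the same dispersion. That run cannot check the case here, where 58.4% of genes were called in mRNA. The genes, lists and rules for naming genes (all 10 genes, and at most 3 per other list by p in mRNA) were chosen with earlier results of these data known. Alternatives were equal library totals, no filter, a replicate block, the other limma test, a pseudocount of 0.5, deposited values, all 12 libraries in 1 fit, and leaving out each library.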

Additional observations from a re-analysis of the deposited data

Results flagged for a closer look

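Values that differed between the hairpins by a test of the difference itself were those of RBM15B mRNA (0.46, shBP2-1 above shBP2-2), FTO mRNA (-0.37, shBP2-1 below shBP2-2) and METTL3 relative footprints (0.69, shBP2-1 above shBP2-2), all as log2 differences in limma. Each group had 2 libraries, so no library could be tested as standing apart from its group.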

How the results depend on the processing

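Of 1360 values of single genes under the alternatives, 1212 kept their direction and side of the threshold, 72 lost a call, 26 gained one, 50 changed sign with no call in either, and 0 reversed a call. The number of the 10 genes called in the mRNA difference between hairpins went from 2 to 1 with equal library totals, no filter, the replicate block or deposited values, where FTO lost its call (adjusted p = 0.0623, 0.118, 0.0806 and 0.0775). In the footprint difference it went from 1 to 0 with equal totals or no filter, and with shBP2-1 from 0 to 1 in limma without weights. In translational efficiency it went with shBP2-1 from 1 to 2 (equal totals) or 3 (no weights), with shBP2-2 from 4 to 2 (no filter) or 0 (no weights), and in the difference from 0 to 1 (no weights). Of all genes, the mRNA difference went from 2845 to 1806 calls with no filter. Footprint calls without weights were 495 in the mean (883 with weights), 1479 with shBP2-1 (634), 341 with shBP2-2 (1156) and 1832 in the difference (585), and shBP2-1 had 1105 with no filter. Efficiency calls without weights were 2681 with shBP2-1 (1638), 1946 with shBP2-2 (3374) and 387 in the difference (52), which had 29 with equal totals and 93 with no filter. The cause was not tested. With 1 library left out, calls among the 10 in mRNA ranged from 3 to 7 (mean), 1 to 4 (shBP2-1), 4 to 7 (shBP2-2) and 0 to 3 (difference), in footprints from 0 to 1 (shBP2-1) and 0 to 0 (difference), and in efficiency from 1 to 5, 0 to 3 and 0 to 5. Calls over all genes ranged in mRNA from 3391 to 8204, 1892 to 7158, 4028 to 6610 and 1837 to 3993, in footprints from 268 to 1160, 101 to 934, 483 to 1502 and 115 to 384, and in efficiency from 2089 to 4054, 640 to 2592, 1833 to 3634 and 34 to 76. A group left with 1 library was assumed to vary like the others. Replicate-1 deviations of the groups correlated at -0.36, 0.11 and -0.06 in mRNA and 0.03, 0.03 and 0.08 in footprints, so the tests did not take the numbers as pairs. With the replicate block, calls among the 10 were 5, 3, 5 and 1 in mRNA, 0, 0, 0 and 1 in footprints and 4, 1, 4 and 0 in efficiency, and footprint calls over all genes were 1055 with shBP2-1 and 1051 in the difference, with 97 in the efficiency difference. How the scores relate to read depth is not stated, and the intervals of the footprint changes were widest for ALKBH5 and RBM15B.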

Other observations

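Genes with an mRNA pattern like METTL3, FTO and ALKBH5 over the 6 mRNA libraries were named by Pearson correlation of log2 rescaled values among genes averaging 100 or more, as a description with no test. For METTL3 they were GALNT6 (0.986), RHOC (0.973) and MSTO1 (0.973), for FTO they were RXYLT1 (0.992), THAP2 (0.985) and CCDC146 (0.982), and for ALKBH5 they were NARF (1.000), CELSR2 (0.999) and TMEM214 (0.998). Over these 6 libraries, which share their groups, correlations over 0.9 were common: 141 genes had one with METTL3, 96 with FTO and 1818 with ALKBH5, of 10160 genes compared.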
